A study of Drosophila melanogaster with 4 samples.

Results

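Small nucleolar RNAs (snoRNAs) and small Cajal body RNAs (scaRNAs) were examined in total RNA from Drosophila melanogaster ovaries. They were found by matching RefSeq noncoding transcripts to gene symbols that begin with snoRNA or scaRNA, and by keeping genes with a mean of at least 1 over the libraries. Of 258 such genes in the tables, 243 snoRNA and 15 scaRNA genes, 8 were kept. The unit throughout is the deposited normalized effective count, a fragment count corrected for target length and scaled by the submitters.

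The series asks whether Piwi, a nuclear Argonaute protein that silences transposons, is needed in the embryo for repression in the adult ovary. It holds 4 libraries, 2 of the control white-embKD (genotype vasa-GAL80[ts]/+;;da-GAL4/shwhite) and 2 of piwi-embKD (genotype vasa-GAL80[ts]/+;;da-GAL4/shpiwi). Both groups carried the daughterless GAL4 driver and the temperature-sensitive GAL80 under vasa, and embryos of both were raised at 28 °C. Parents were kept at 18 °C. The labels state neither the age of the flies nor how many were pooled, and each group is 1 genotype, so the hairpin's target and other differences between the genotypes cannot be told apart.

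Most snoRNAs guide the chemical modification of other RNAs by base pairing. Box C/D snoRNAs direct methylation of the ribose by fibrillarin, and box H/ACA snoRNAs direct the change of uridine to pseudouridine by dyskerin. Their main target is ribosomal RNA, while scaRNAs act on spliceosomal RNAs in the Cajal body, and U3 is needed to cut the ribosomal precursor. In flies most snoRNAs are released from introns of a surrounding gene, called the host, as its transcript is spliced.

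Piwi mRNA stood at 410.0 and 401 in the white-embKD libraries and at 238 and 121 in the piwi-embKD libraries. The log2 difference of −1.25 did not pass (limma adjusted p = 0.0562). The labels name a knockdown in the embryo, so they do not state the level in the ovary. The mRNA of white (w) was at 1.35 and 1.19 in white-embKD and at 3.34 and 2.87 in piwi-embKD (limma adjusted p = 0.101). All 4 libraries held germline markers (vas, aub, bam and osk), whose sum ran from 2654 to 3456, and 4 testis markers were listed at 0. Follicle cell markers summed to 1356 and 1398 in white-embKD and to 3172 and 3192 in piwi-embKD, muscle markers to 38.6 and 44.2 against 72.9 and 81.9, and gut markers to 60.9 and 72.6 against 0.297 and 11.2. Whether these shifts bear on the snoRNA levels was not tested. In bulk tissue, fewer cells of a type and less RNA per cell cannot be told apart.

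The tables held measurable signal only for the longest snoRNAs. All 8 genes kept were between 210 and 316 nt long in the RefSeq Release 6 annotation, against a median of 134.5 nt over the 258 genes. Of the 258, 226 were listed at 0 in all 4 libraries, including every one of the 99 genes of up to 100 nt and the 13 genes from there to 125 nt. Among 112 genes over 125 and up to 150 nt, 12 were above 0 in at least 1 library, and the highest mean was 0.222. From there to 175 nt 10 of 24 were above 0, and the highest mean was 0.0923. Of the 9 genes longer than 200 nt, all 9 had signal and 8 had a mean of at least 1. The shortest RNA with any value above 0 had 138 nt, and the longest with none had 171 nt.

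**Figure D1:**
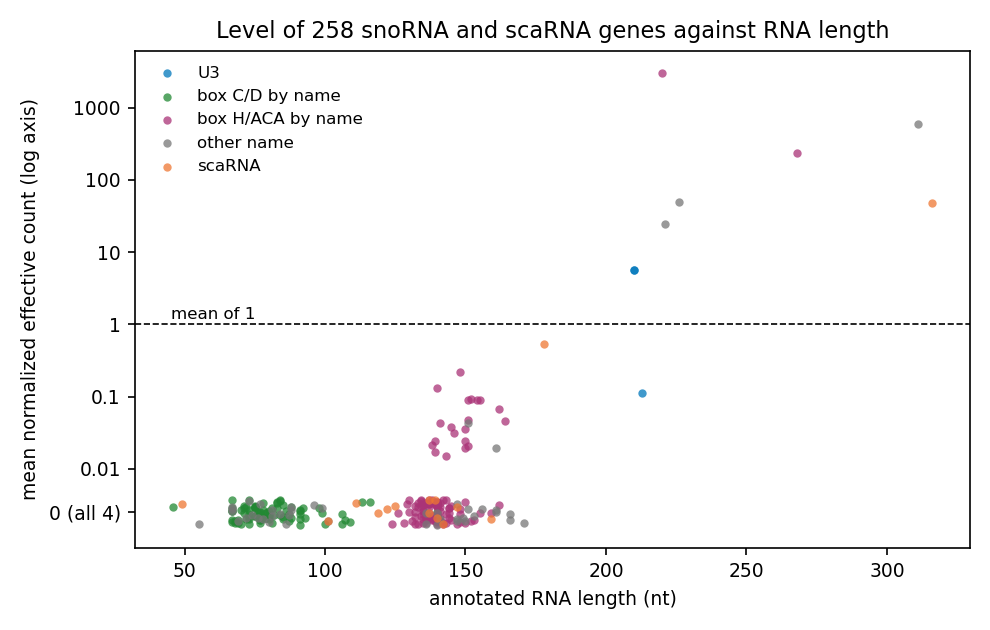
Mean normalized effective count over 4 libraries (log axis) against annotated RNA length in nt for 258 genes, coloured by the class the name gives; genes at 0 in all 4 libraries sit on the lowest row, spread slightly for visibility. The 8 genes above the dashed line at a mean of 1 are all 210 nt or longer.

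Because box C/D and box H/ACA RNAs differ in length, the signal was split by class. None of the 84 genes named as box C/D guides, with a median length of 78.5 nt, was above 0 in any library. Of 111 genes named as box H/ACA guides, with a median of 140 nt, 22 were above 0 and 2 were kept. All 3 U3 genes, classed apart from the box C/D guides, were above 0, and 2 were kept. Of 45 genes whose names give no class, 5 were above 0 and 3 were kept. The 13 genes named after vertebrate U snoRNAs other than U3, none longer than 88 nt, were all listed at 0. Among 15 scaRNAs 13 were listed at 0, 1 was kept, and scaRNA:PsiU2-55, a guide named for U2 snRNA, lay just outside the threshold. Its values were 0.631 and 0 in white-embKD and 1.07 and 0.456 in piwi-embKD, a mean of 0.538. The members just inside were the U3 copies, at a mean of 5.58.

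A listing at 0 does not show that an RNA was absent from these ovaries. On the assumption that the smallest value above 0 in each library is the last decimal written by eXpress, 3 effective counts were worth between 0.148 and 0.188. That floor covers counting error only. For targets near the fragment size the length correction changes what 1 fragment is worth, so no upper limit is drawn from a 0. In all, 44 of the snoRNA genes lie inside genes named Uhg, noncoding hosts known for little else than their intronic snoRNAs, and 42 of these 44 were listed at 0.

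The spliced Uhg hosts themselves stood well above the filter. Uhg1, the host of 16 snoRNAs, was at 48.2 and 41.6 in white-embKD and 53.5 and 44.9 in piwi-embKD. Uhg5, the host of 11, was at 42.0 and 40.0 against 38.2 and 25.1. Uhg4, the host of 7, was at 16.9 and 20.6 against 17.4 and 21.6, and 2 of its snoRNAs had traces of signal, among them snoRNA:Or-aca5 at 0.112, 0.126, 0.270 and 0.380. Of the 7 Uhg genes tested (Uhg6 being a synonym of Nop60B in RefSeq), 0 passed between groups or between replicate numbers. Over all features 6.85% passed between groups and 0.172% between replicate numbers, so 0 among so few is near these shares.

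The members fell on 3 chromosome arms, 4 on 3L, 2 on 3R and 2 on 2R, and 6 of the 8 lie in an intron of a protein-coding gene on the same strand. Values below are given in the order white-embKD replicates 1 and 2, then piwi-embKD replicates 1 and 2. snoRNA:Psi28S-291, a 220 nt RNA named as a pseudouridine guide for 28S ribosomal RNA, lies in an intron of RpL3, a gene for a protein of the large ribosomal subunit. It was at 4845, 1076, 4086 and 1900.0, high in both replicate 1 libraries and low in both replicate 2 libraries, and the groups overlapped. The other pseudouridine guide, snoRNA:Psi28S-2566, with 268 nt in an intron of CG3902, was at 357, 81.7, 369 and 143, with the same order.

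snoRNA:Tudor-SN-a, a 311 nt RNA in an intron of Tudor-SN, was at 699, 392, 766 and 513. Tudor-SN encodes a nuclease-like protein with a Tudor domain, and the snoRNA's target is not given by its name. Its replicate 2 values were again the lower ones in each group, by less than for the guides above.

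scaRNA:MeU5-C46, known as U85, has 316 nt in an intron of CG1142. U85 is known as a composite RNA that carries both kinds of box and modifies U5 snRNA. It was at 67.7, 20.8, 67.5 and 35.0, and its replicate 1 values were nearly equal between the groups.

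snoRNA:CG32479-a (226 nt) and snoRNA:CG32479-b (221 nt) lie in introns of Usp10, the gene for a ubiquitin-specific protease. The first was at 54.4, 9.46, 92.3 and 43.2 and the second at 55.0, 16.8, 20.1 and 7.14. For both, each replicate 1 library was above each replicate 2 library.

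The U3 genes snoRNA:U3:54Aa and snoRNA:U3:54Ab, of 210 nt each, have no host on their strand. Both had 4.94, 1.18, 11.2 and 4.97, each a sum over 2 targets, and identical in every library. Fragments that match both copies cannot be assigned to one, but why the sums are identical was not tested. The 8 genes give 7 distinct series of values. The remaining U3 gene, snoRNA:U3:9B with 213 nt, stayed below the filter at 0.126, 0, 0.163 and 0.164.

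**Figure D2:**
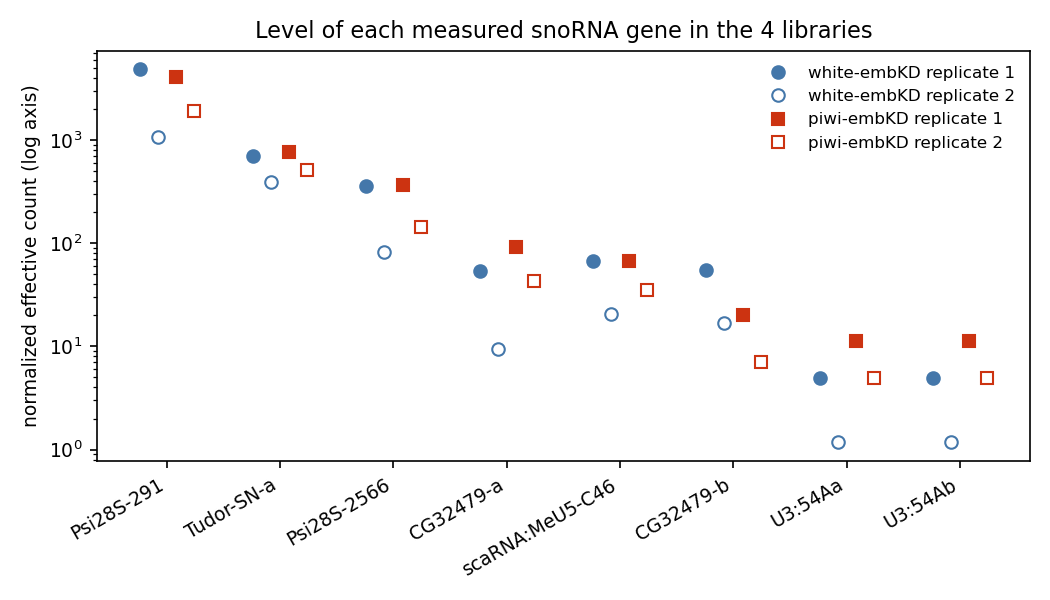
Normalized effective count (log axis) of each of the 8 genes kept, with 1 point per library; filled symbols are replicate 1 and open symbols replicate 2, circles white-embKD and squares piwi-embKD. Within each group the open symbol is below the filled one for all 8 genes, as for Psi28S-291 at 4845 and 1076 in white-embKD.

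Per length the order of listed values was steep. The values depend on the fragment lengths assumed for each library, which are not stated, so this is no order of true abundance. Psi28S-291 stood at 2202, 489, 1857 and 864 per 100 nt, and it held 79.6%, 67.3%, 75.3% and 71.7% of the summed signal of the 8 genes. Tudor-SN-a followed at 225, 126, 246 and 165 per 100 nt, and Psi28S-2566 at 133, 30.5, 138 and 53.5. These 3 kept ranks 1, 2 and 3 in all 4 libraries, and the U3 copies came last in all 4, at 0.563 to 5.35 per 100 nt. The ranks of CG32479-a, CG32479-b and MeU5-C46 changed between libraries, and their levels per 100 nt, 3.23 to 40.9, overlapped.

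Between the knockdown and the control, no snoRNA gene passed the main test. With replicate number as a block, 4 of the 8 passed, as did 810 of all 8117 features. For the main test the groups were compared with limma on log2(value + pseudocount), with no replicate term. A call needed a Benjamini-Hochberg adjusted p under 0.05 over all 8117 features tested. Of the 8 genes 0 were called in either direction, where 6.85% of all features were (5.17% higher and 1.68% lower in piwi-embKD). None of the 8 had an unadjusted limma p under 0.05 (0 of 8, where 25.1% of all features did). Their median log2 change (piwi-embKD minus white-embKD) was 0.39, against −0.04 over all features. Summed, the 8 genes took 0.615% and 0.165% of the white-embKD libraries and 0.533% and 0.264% of the piwi-embKD libraries, means of 0.390% ± 0.319 and 0.398% ± 0.190 (SD, n = 2 each). A two-sided exact permutation test of the libraries gave p = 1 for this share, where 2 against 2 cannot go below 0.333.

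The spread within groups was as large as most of these differences. For Psi28S-291 the group means were 2961 ± 2665 and 2993 ± 1546 (SD, n = 2 each), which differed by 0.29 ± 0.70 SE on the log2 scale (limma adjusted p = 0.82). It was −0.80 without white-embKD replicate 2 and 1.37 without white-embKD replicate 1. The log2 difference of Tudor-SN-a, which had the smallest standard error, was 0.26 ± 0.30 (limma adjusted p = 0.616), and that of Psi28S-2566 was 0.43 ± 0.72 SE. The U85 RNA MeU5-C46 had a log2 change of 0.36 ± 0.55 SE.

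The U3 copies and the Usp10 pair had the largest group differences, none of which passed in the fit between groups, which had no replicate term. All 4 passed in the fit with replicate number as a block, given in the closing section, where 810 of 8117 features passed. The replicate calls below come from that same fit. The numbers are not known to pair the libraries. The U3 copies had means of 3.06 ± 2.66 and 8.11 ± 4.44 (SD, n = 2 each), 1.25 ± 0.54 SE apart on the log2 scale (limma adjusted p = 0.214). Their groups did not overlap, but only by 4.94 against 4.97, and 59.0% of all features had groups that did not overlap. CG32479-a differed by 1.42 ± 0.75 SE on that scale (limma adjusted p = 0.294). The value turned on the control libraries: it was 0.21 without white-embKD replicate 2 (limma adjusted p = 0.902) and 2.62 without white-embKD replicate 1 (limma adjusted p = 0.00625). Each of these fits leaves 1 control library, which is assumed to vary like the piwi-embKD libraries. Leaving out any 1 library took the U3 copies from 0.53 (without white-embKD replicate 2) to 1.97 (without white-embKD replicate 1), with no call.

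The snoRNAs inside Usp10 differed from each other in the sign of the group difference. For CG32479-b it was −1.27 ± 0.62 SE on the log2 scale (limma adjusted p = 0.259), and −0.44 without white-embKD replicate 1 to −2.10 without white-embKD replicate 2, with no call on leaving out any 1 library. Its piwi-embKD values of 20.1 and 7.14 stood below the white-embKD value of the same replicate number, while those of CG32479-a stood above. The ratio of CG32479-a to CG32479-b was 0.99 and 0.562 in white-embKD and 4.60 and 6.04 in piwi-embKD. This ratio was singled out after the values were seen. Its groups did not overlap, and a two-sided exact permutation test of the log2 ratio gave p = 0.333, the smallest that 2 against 2 can give. Usp10 itself was at 204 and 212 in white-embKD and 214 and 233 in piwi-embKD, a log2 change of 0.10 that did not pass (limma adjusted p = 0.522).

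**Figure D3:**
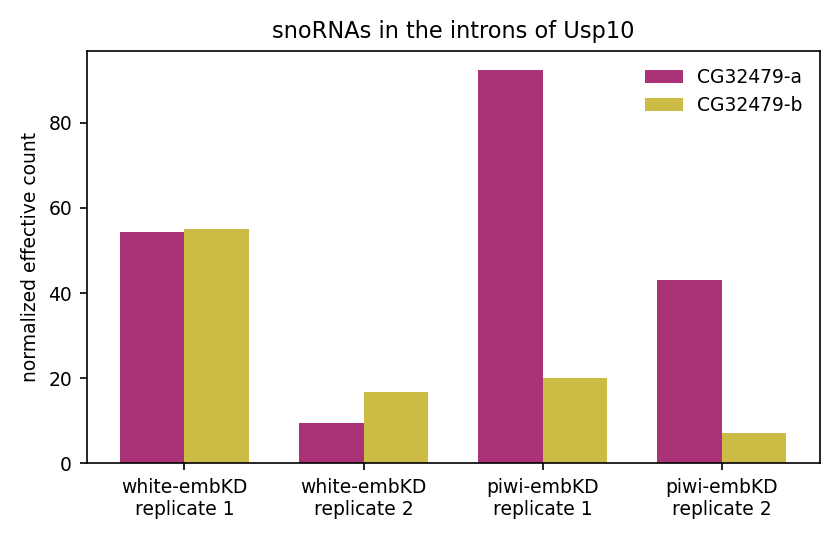
Normalized effective count of CG32479-a and CG32479-b in each library, 1 bar per snoRNA, on an axis from 0. The bars are nearly level in white-embKD replicate 1 (54.4 and 55.0), and CG32479-a is the taller in both piwi-embKD libraries (92.3 against 20.1 and 43.2 against 7.14).

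For all but the U3 copies, the larger difference lay between replicates 1 and 2. For the U3 copies the log2 change was 1.25 between groups and −1.24 between replicate numbers. All 8 genes were lower in replicate 2 than in replicate 1 of the same group. In 6 of them both replicate 2 libraries were below both replicate 1 libraries, an order that 15.0% of all features showed. The exceptions were the U3 copies, whose 4.94 in white-embKD replicate 1 was just below the 4.97 in piwi-embKD replicate 2. The level in replicate 1 was 1.78 to 5.76 times that in replicate 2 in white-embKD and 1.49 to 2.81 times in piwi-embKD, and for all 8 genes the ratio was the larger in white-embKD. With 1 pair in each group, that difference between the groups was not tested.

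The replicate comparison came from a limma fit with group and replicate number, the same fit as the replicate block above. In it, 5 of the 8 genes were called lower in replicate 2, where 0.16% of all features were (13 of 8117). Called higher were 0, where 0.0123% of all features were (0.172% in either direction). All 8 had an unadjusted limma p under 0.05, as did 4.55% of all features, and 7 had a log2 change of −1 or less, as did 1.26%. For Psi28S-2566 the log2 change (replicate 2 minus replicate 1) was −1.74 ± 0.16 SE, with a limma adjusted p of 0.00129. CG32479-b followed at −1.51 ± 0.16 SE (0.00286 by the same adjusted test) and Psi28S-291 at −1.64 ± 0.21 SE (0.00663). MeU5-C46 had −1.29 (limma adjusted p = 0.00955) and CG32479-a −1.74 (0.0136). Tudor-SN-a, at −0.70 ± 0.12 SE (limma adjusted p = 0.071), and the U3 copies, at −1.24 ± 0.25 SE (0.177), did not pass. Tudor-SN-a passed with a stricter filter on low values (limma adjusted p = 0.0119) and when scaled without small noncoding RNA (0.0366). The median over the 8 genes was −1.40, against −0.04 over all features.

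This fit had 1 residual degree of freedom, and the calls depended on its settings. All 5 were lost without the intensity trend, with no filter on low values, with median-of-ratios scaling and without the group term, where 0 of all features were called, while the median change stayed at −1.36 to −1.40. The labels do not say that a replicate number marks a shared preparation or run. Across the 8098 features other than the small RNAs, deviations of same-numbered libraries had r = 0.02 (features are not independent replicates). Because this r leaves out the small RNAs, it cannot speak to a deviation shared by them alone, which was not tested.

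As a share of the library, the 8 genes took 0.574% ± 0.058 in replicate 1 and 0.214% ± 0.070 in replicate 2 (SD, n = 2 each), a 2.68-fold difference (two-sided exact permutation p = 0.333, the smallest possible). Without Psi28S-291 the shares were 0.129% and 0.0644%, a 2.00-fold difference.

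Hosts of the intronic snoRNAs were nearly level between replicates. RpL3 stood at 1982 and 1802 in white-embKD and 2455 and 2389 in piwi-embKD, and its log2 change between replicate numbers was −0.09 ± 0.12 SE (limma adjusted p = 0.963). Tudor-SN was at 726 and 743, then 768 and 826, and CG3902 at 202 and 207, then 169 and 162. Over the 5 host genes the ratio of replicate 1 to replicate 2 ran from 0.921 to 1.15. CG1142, the host of U85, was at 27.8 and 26.9 in white-embKD and 37.4 and 32.4 in piwi-embKD. Set against RpL3, Psi28S-291 therefore stood at 2.45 and 0.597 in white-embKD and 1.66 and 0.795 in piwi-embKD, and set against CG1142, U85 stood at 2.44, 0.776, 1.81 and 1.08.

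**Figure D4:**
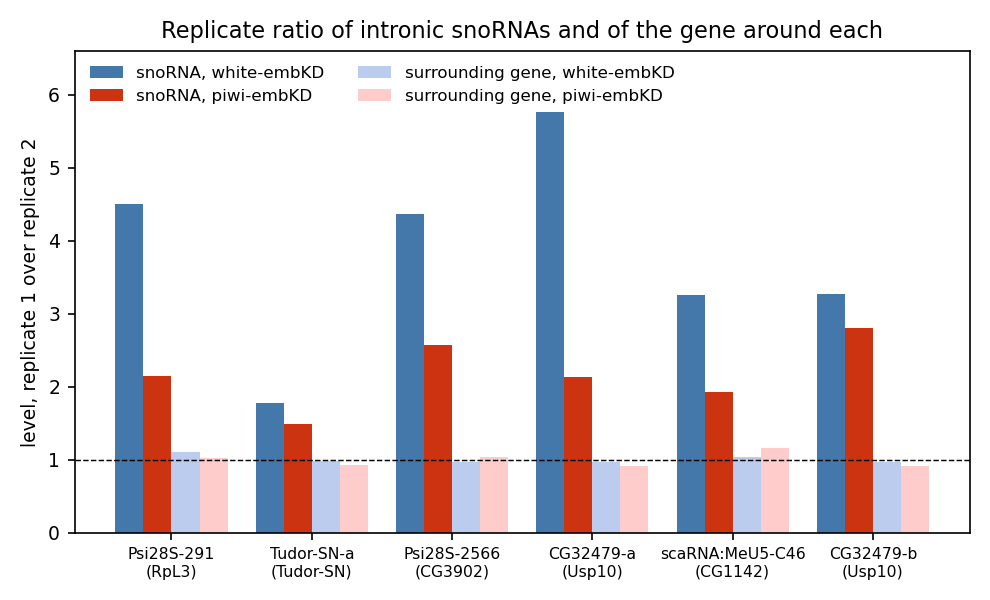
Level in replicate 1 divided by level in replicate 2 for the 6 intronic snoRNAs (dark bars) and the gene around each (pale bars), in white-embKD (blue) and piwi-embKD (red), on an axis from 0 with a dashed line at 1. The snoRNA ratios run from 1.49 to 5.76 and those of the surrounding genes from 0.921 to 1.15.

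Other small noncoding RNAs of similar length moved with the snoRNAs. Of 270 other small noncoding RNA genes of any length in the data, 11 had a mean of at least 1 and were tested. Of the 11, 7 were called lower in replicate 2, where 0.16% of all features were, and 0 higher. The median log2 change of the 11 was −1.39. Together with the 5 snoRNA genes the 7 made up 12 of the 14 features called in this comparison (2 were transcripts without a gene match). U11 and U12, RNAs of the minor spliceosome, were at 305, 61.4, 262 and 108 and at 251, 93.4, 278 and 107. The RNA of RNase P, which trims transfer RNA, was at 493, 108, 407 and 152 (log2 change −1.80 ± 0.16 SE, limma adjusted p = 0.00129). The RNA of RNase MRP, which cuts the ribosomal precursor, was at 3525, 1304, 3583 and 1687 (−1.26).

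The remaining calls were 3 of the U2 snRNA genes, of 192 nt each, with log2 changes of −1.47 for U2:14B and −1.42 for U2:34ABb and U2:34ABc, which had identical values. 7SK, which holds back an elongation kinase and at 444 nt is the longest of the set, was at 4030, 1927, 4010 and 2799 and did not pass (−0.79 ± 0.15 SE, limma adjusted p = 0.151). All 7 called genes lost the call under the same 4 settings as the snoRNAs, and U2:14B also with a smaller pseudocount.

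The 7SL genes were the exception. 7SL is the RNA of the signal recognition particle, with 299 nt, the length annotated for the RNase P RNA. Both copies were listed at 2647, 6264, 7117 and 7367, low in white-embKD replicate 1 and alike in the other libraries. Their log2 change from replicate 1 to replicate 2 was 0.65 ± 0.23 SE (limma adjusted p = 0.952), the opposite sign to the snoRNAs.

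Other short genes had smaller median changes. The 38 protein-coding genes with spliced transcripts of up to 400 nt had a median log2 change between replicate numbers of −0.15, and 1 of them was at −1 or less. RpL41, with 320 nt, was at 3288, 3016, 3505 and 3266. The 7 other noncoding genes in that range had a median of −0.36, and 1 of them was at −1 or less (−1.26). The most abundant, lncRNA:CR40469 with 214 nt, was at 1044, 564, 1519 and 1359.

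**Figure D5:**
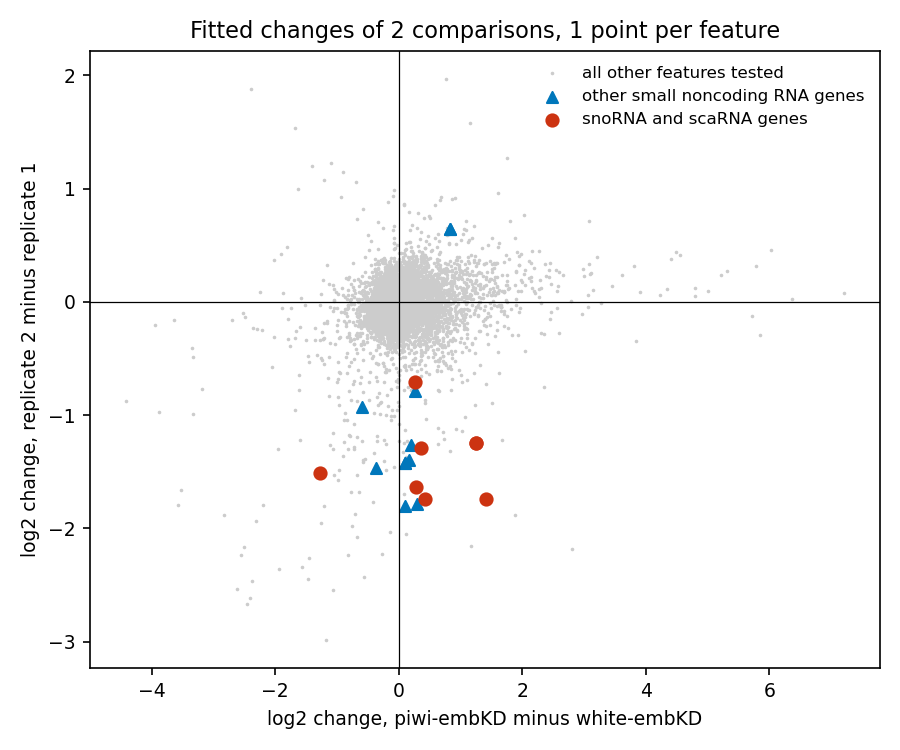
Fitted log2 change between replicate numbers (vertical) against the log2 change between groups (horizontal) for 8117 features on log2(value + pseudocount). The 8 snoRNA and scaRNA genes (red circles, U3 copies overlapping) lie between −0.70 and −1.74 on the vertical axis. Of the other small noncoding RNA genes (blue triangles), 7SL lies at 0.65 and the rest between −0.79 and −1.80.

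Genes for the proteins that bind snoRNAs showed no call. Of the 8 core proteins measured 0 were called in either comparison, and their median log2 change between replicate numbers was −0.05. Over all features 6.85% were called between groups and 0.172% between replicate numbers, so 0 among so few genes is near these shares. Nop60B, the fly dyskerin, was at 879, 810, 874 and 905, and nop5, a core protein of box C/D particles, at 511, 532, 544 and 506. Fib, the methyltransferase fibrillarin, was at 98.5, 94.3, 122 and 180, with a log2 change between groups of 0.61 ± 0.18 SE (limma adjusted p = 0.107). Of 6 genes for particle assembly and the Cajal body 0 were called in either comparison, with Nopp140, a nucleolar chaperone, at 203, 229, 393 and 235. WDR79, the fly counterpart of a protein that brings scaRNAs to the Cajal body, was at 29.6 and 27.3 in white-embKD and 39.6 and 41.4 in piwi-embKD (log2 change 0.50, limma adjusted p = 0.0557).

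Of 11 exosome genes, whose products trim snoRNA ends, 0 were called in either comparison, with median log2 changes of 0.10 between groups and −0.03 between replicate numbers. Rrp6, an exonuclease of the nuclear exosome, was at 144, 152, 117 and 136, and Dis3, its other exonuclease, at 111, 104, 122 and 129. Of 85 cytosolic ribosomal protein genes, many of which host snoRNAs, 0 were called in either comparison. Their medians were 0.14 between groups and −0.09 between replicate numbers. The shares to set beside the exosome and ribosomal protein counts are those over all features, 6.85% between groups and 0.172% between replicate numbers.

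Genes named as long noncoding RNAs, some no longer than the snoRNAs kept (lncRNA:CR43967 has 245 nt), were counted in the same way. Of 52 tested, 4 were called higher in piwi-embKD, where 5.17% of all features were, 0 lower, and 0 were called between replicate numbers. lncRNA:CR43967 was listed at 0 in both white-embKD libraries and at 3.26 and 4.58 in piwi-embKD (limma adjusted p = 0.00867). lncRNA:CR43264 was at 6.88 and 4.53, then 15.1 and 13.0, lncRNA:CR42491 at 18.2 and 15.2, then 31.1 and 27.2, and lncRNA:alphagamma-element:CR32865 at 0.297 and 0.438, then 2.49 and 3.14.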

How the data were processed

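Each of 4 libraries came as 1 table of 29637 targets. The deposited signal is a normalized effective count of eXpress, per the file headers and names, in which the normalization is not described. Per the submitters' processing notes, Bowtie2, STAR and Cufflinks were among the tools, and dm3 was the build; roles and versions are not given. Neither strand setting nor fragment sizes are stated. Per the labels' protocols, 4 µg of total RNA was depleted of ribosomal RNA and sequenced as pairs of 150 nt. An effective count divides by the share of a target that fragments can cover, so for targets near the fragment size it depends on the fragment lengths assumed for that library.

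Column totals ran from 970340 to 1017520, and depth, inferred from the smallest value above 0 in each library, from 16194219 to 20025084 effective counts. Transcripts were matched to the RefSeq table of Release 6 (28595 of 29511, 96.9%), with copies that carry a number suffix added to their gene, and summed. Of 1691 noncoding transcripts 137 had no match. Lengths and hosts came from that table and from Ensembl 115 for the same assembly. Since the files use dm3, no coordinate or sequence is given.

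limma 3.58.1 in R 4.3.3 was run with an intensity trend on log2(value + 0.995), for features with a mean of at least 1, two-sided, with Benjamini-Hochberg adjustment over 8117 features. The replicate comparison added the group as a term. Scripts were tested on simulated data. The labels call the libraries biological replicates. Titles without a number were taken as replicate 1. Alternatives changed the pseudocount, filter, scaling, trend, block and libraries. The pairing check on replicate numbers is in the closing section. Members, lists and tests were chosen with earlier results of these data known. The genes named were the members with the highest mean or largest change, every scaRNA and U-named gene, the genes at the threshold, and from each list those called and the most abundant. The Usp10 ratio, Fib, WDR79 and Or-aca5 were added after their values were seen, as were the values by transcript length.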

Additional observations from a re-analysis of the deposited data

Results flagged for a closer look

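CG3902, the gene around Psi28S-2566, had a replicate difference of opposite sign in the 2 groups, at a log2 change of 0.0361 in white-embKD and −0.0563 in piwi-embKD (replicate 2 minus replicate 1). The difference between the groups was not tested, and both values are smaller than the standard error of 0.12 in limma.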

How the results depend on the processing

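The median change between replicate numbers kept its sign in each alternative run (−1.22 to −1.55, and −1.65 to −1.06 on leaving out any 1 library, which leaves the pair of 1 group and no test). The count of snoRNA genes called there was 5, and it was 3 with the smaller pseudocount and 0 with no filter on low values, with median-of-ratios scaling, without the trend and without the group term. It was 6 with the stricter filter and when scaled without small noncoding RNA, where Tudor-SN-a joined. The prior degrees of freedom in limma fell from 9.72 to between 2.97 and 4.14 in those 4 fits. Between groups, 0 snoRNA genes were called, and 0 to 1 on leaving out any 1 library. The median ran from −0.31 to 1.43 in those fits, with the highest value without white-embKD replicate 1. The features called in all, 556, were 105 with no filter and 208 to 2879 on leaving out any 1 library. With the replicate block, 4 snoRNA genes passed (limma adjusted p = 0.00334 for CG32479-a, 0.000384 for CG32479-b and 0.00872 for the U3 copies). The numbers are not known to pair the libraries. Same-numbered deviations had r = 0.06 over 8117 features, few of which are small RNAs, and features called rose from 556 to 810. Leaving out each library gave group changes of −0.80 to 1.37 for Psi28S-291, −0.16 to 0.67 for Tudor-SN-a, −0.63 to 1.48 for Psi28S-2566 and −0.47 to 1.18 for MeU5-C46. Negative values came without white-embKD replicate 2 (−0.80, −0.16, −0.63 and −0.47) or without piwi-embKD replicate 1 (−0.27, −0.03, −0.25 and −0.11). CG3902 turned from −0.01 to 0.0332 with median-of-ratios scaling and 0.00728 when scaled without small noncoding RNA. The cause was not tested.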
